A study of Drosophila melanogaster with 12 samples.

Results

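The 5 genes described here, *Acat1*, *Hmgs*, *Fpps*, *qless* and *Coq2*, were grouped under mevalonate and isoprenoid synthesis with its branch to ubiquinone. *Acat1* encodes a mitochondrial enzyme, and the enzyme placed at the start of the mevalonate pathway is the cytosolic one of *Acat2*, described below. The 5 genes were chosen by gene symbol from the 24134 genes listed in the table, and all 5 were among the 10069 genes that were tested, those with a mean of 3.32 or more in any of the 4 groups (10 on a count scale). The question put to them was how loss of the *Drosophila* estrogen-related receptor (dERR, gene symbol *ERR*) changed their transcripts in the fat body and in the whole larva. All larvae were in a *white* mutant background and in the second larval stage (L2), raised for 60 h at 25 °C per the labels on molasses agar with yeast. Mutants carried 2 different *ERR* alleles (*ERR*1/2) and controls carried 1 of these alleles over a normal chromosome (*ERR*1/+), so every larva in the study carried *ERR*1 and no group was wild type. Genotypes were picked by the absence of GFP and YFP balancer markers. RNA came either from dissected fat bodies or from whole animals, with 3 samples in each of the 4 groups.

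The mevalonate pathway joins acetyl-CoA units through acetoacetyl-CoA and HMG-CoA to mevalonate, and turns mevalonate into the isoprene unit isopentenyl diphosphate. Farnesyl diphosphate, built from these units, is the branch point for the lipid anchors of prenylated proteins, for dolichol, for juvenile hormone and for the long tail that anchors ubiquinone, the electron carrier of mitochondria, in the membrane. Insects do not make sterols, so these branches rather than cholesterol are the known uses of the route in flies. The larval fat body is the insect tissue that combines the storage role of adipose tissue with many metabolic roles of the liver.

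Values are rlog values, a log2 scale of read abundance on which differences between samples are pulled toward each other for genes with few reads. They are not scaled to gene length, so levels are compared between samples of a gene and not between genes. Within groups, samples correlated with each other at r = 0.958 to 0.981 across genes. The median SD within a group was 0.223 in control and 0.209 in mutant fat bodies. It was 0.1335 in control and 0.164 in mutant whole animals. The model shares the spread of a gene over both tissues, so an SE or interval below is not specific to its tissue. The fat bodies numbered 5, 6 and 7 are controls and those numbered 1, 2 and 4 are mutants. The methods describe the fat body samples as technical replicates, sets of 5 larvae taken from 15 per genotype, so p-values measure the spread between these samples. The *ERR* transcript was at 9.11, 9.24 and 8.29 in control fat bodies and at 8.40, 8.25 and 8.39 in mutant fat bodies, a difference of −0.53 (SE 0.21, adjusted p = 0.0948), and the sample labelled control 7 was within the range of the mutants. In whole animals the *ERR* difference was −0.14 (SE 0.21, adjusted p = 0.959), so *ERR* RNA did not separate the genotypes in either tissue. Values without the sample labelled control 7 are therefore given beside the fat body changes of *Acat1*, *Hmgs*, *Fpps* and *qless*.

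Summed fat body markers (6 genes) were at 19.1 to 19.6 in control and 19.3 to 19.7 in mutant fat bodies, against 16.6 to 17.0 over both groups of whole animals, which contain the fat body among all other tissues. Among these markers *Lsd-1* and *FASN1* rose and *Mtp* fell in mutant fat bodies, and *FASN1* rose in mutant whole animals. Summed midgut markers (6 genes) were at 3.09 to 4.36 in control and 3.13 to 4.02 in mutant fat bodies, against at least 15.6 in whole animals. Summed muscle markers (6 genes) were at 8.89 to 10.9 in control and 8.74 to 9.49 in mutant fat bodies. Of the other marker lists, *Pxn* of the 4 hemocyte markers and *spok* of the 6 ring gland markers fell in mutant fat bodies. Of 2 cuticle markers tested, *TwdlT* fell and *Lcp1* rose in mutant whole animals. Summed germline markers (4 genes) ran from 2.842 to 8.256 in control and 1.395 to 7.256 in mutant fat bodies. Whole animals were at 5.015 to 6.724, below the highest fat body of either genotype. Summed salivary gland markers (3 genes) were at 1.771 to 4.391 in control and 3.129 to 6.538 in mutant fat bodies. Whole animals were at 8.352 or more. No tested gene of the germline and salivary gland lists passed in either tissue. The part these tissues play in the results below was not tested. In such bulk samples fewer cells of a type and less RNA per cell cannot be told apart.

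In *dERR* mutant fat bodies, 3 of the 5 genes rose and 1 fell. *Fpps*, *Hmgs* and *qless* rose 3.38-fold, 2.83-fold and 2.52-fold, *Acat1* fell by 1.59 on the log2 scale, and *Coq2* did not pass the test. In whole animals only *qless* passed, and it changed the other way, to a level 2.15-fold lower than in controls. Over all genes tested, 22.3% passed an adjusted p of 0.05 in fat bodies (11.1% higher and 11.2% lower) and 3.29% in whole animals (0.725% higher and 2.56% lower). In fat bodies the mutant samples were all above the controls for 3 of the 5 genes and all below them for 1, against 14.2% and 25.8% of all genes tested (40% without overlap in all). In whole animals they were all below the controls for 1 of the 5 genes and all above for 0, against 13.5% and 13.7% of all genes (27.1% without overlap). For 4 of the 5 genes the change differed between the tissues, in the positive direction for 3 and the negative for 1, where 10.2% of all genes did so (5.86% positive and 4.39% negative). Fat bodies and whole animals differed for most genes in either genotype (71.7% in controls, 24.9% with the fat body higher and 46.8% lower, and 70.4% in mutants, 24.4% higher and 46% lower), so the tissue differences below are given for the order of the levels. The 5 genes were proposed with results of these samples known, so their counts describe them and nothing more.

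**Figure D1:**
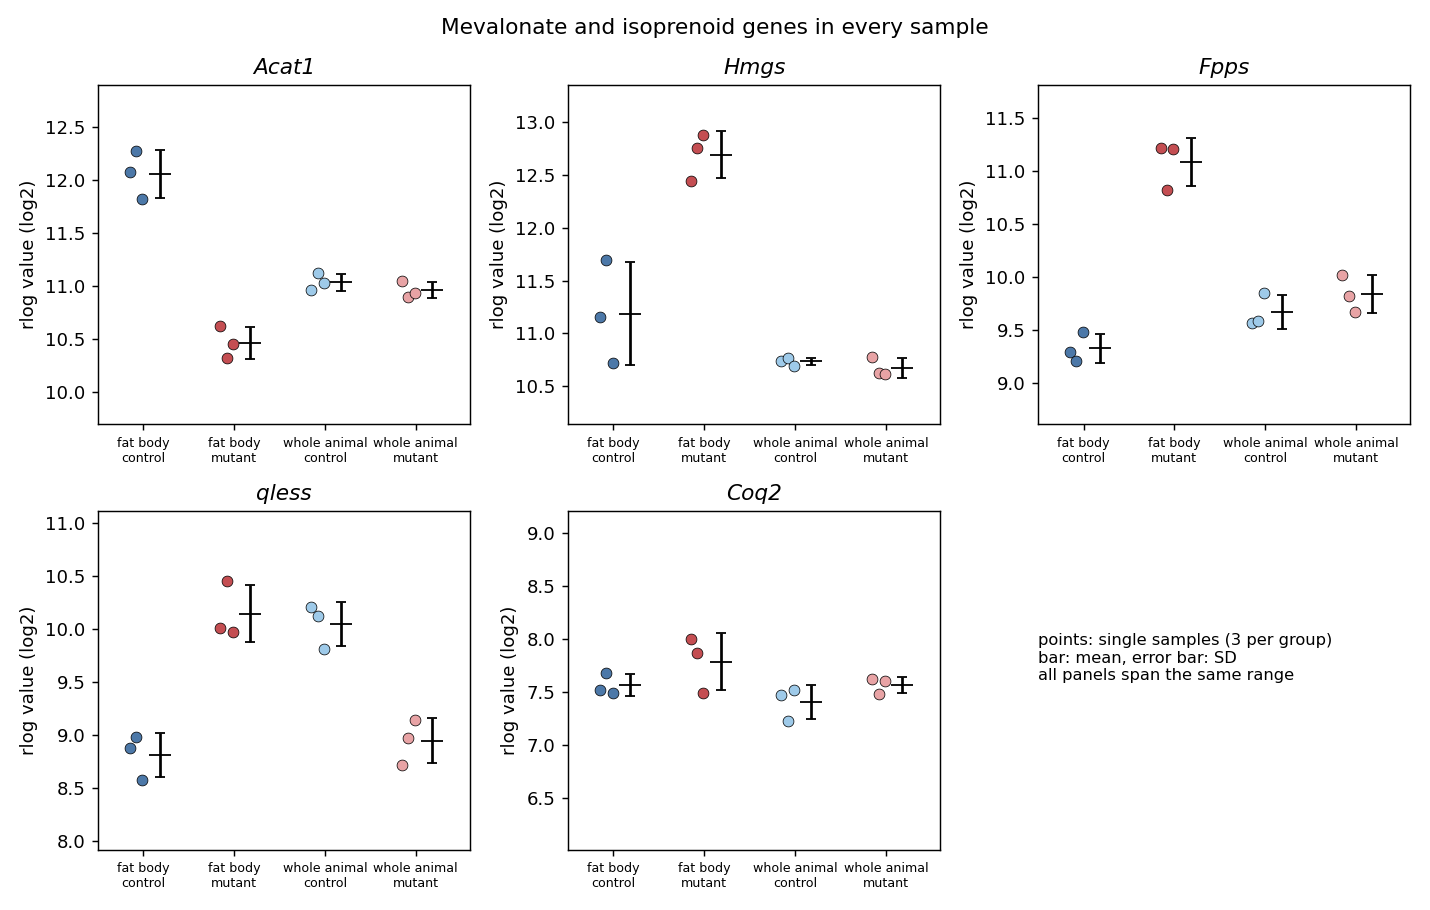
Rlog values (log2) of *Acat1*, *Hmgs*, *Fpps*, *qless* and *Coq2* in each of the 12 samples, by group, with the mean and SD of 3 samples beside the points; every panel spans the same number of log2 units. In mutant fat bodies *Fpps* lay at 10.82 to 11.22 against 9.21 to 9.48 in controls, whereas *qless* was high in mutant fat bodies and control whole animals and low in the other groups.

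*Acat1* (FBgn0029969, X from 7887130 to 7888785, minus strand) encodes a mitochondrial acetyl-CoA acetyltransferase, an enzyme that makes and splits acetoacetyl-CoA. In fat bodies it was at 12.07, 12.27 and 11.81 in controls and at 10.62, 10.32 and 10.44 in mutants. Each mutant was below each control, with 1.20 between the lowest control and the highest mutant. The difference of −1.59 (SE 0.11, 95% interval −1.84 to −1.34, limma adjusted p = 4.03e-06) corresponded to a 3.01-fold lower level, and it also passed limma's treat test against a log2 change of 1 (adjusted p = 0.00788). Without the sample labelled control 7 it was −1.71. In whole animals *Acat1* was at 10.96, 11.12 and 11.02 in controls and at 11.04, 10.90 and 10.93 in mutants. These groups overlapped, and the difference was −0.07 (95% interval −0.33 to 0.18, adjusted p = 0.965). The fat body change was more negative than the whole animal change by 1.52 (SE 0.16, interaction adjusted p = 0.000258). Control fat bodies had the highest of the 4 group means of *Acat1* (12.05 ± 0.23, SD, n = 3) and mutant fat bodies the lowest (10.46 ± 0.15), with the whole animals between them at 11.03 ± 0.08 and 10.96 ± 0.08. Control fat bodies exceeded control whole animals by 1.02 (adjusted p = 1.06e-05). Mutant fat bodies were below mutant whole animals by a difference of −0.50 (adjusted p = 0.00244), which turned to 0.36 after median centring of the samples.

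*Acat2*, the cytosolic enzyme for the same reaction and the one placed at the start of the mevalonate pathway, did not pass in either tissue. Under the alternatives, *Acat2* passed as lower in fat bodies without the sample labelled control 7, and as lower in whole animals with limma's array weights. With all 12 samples its difference was −0.19 (SE 0.18, adjusted p = 0.504) in fat bodies and −0.35 (SE 0.18, adjusted p = 0.541) in whole animals.

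*Hmgs* (FBgn0010611, 2R from 16336090 to 16341242, plus strand) encodes HMG-CoA synthase, which condenses acetoacetyl-CoA with acetyl-CoA. Control fat bodies were at 11.15, 11.69 and 10.72 and mutant fat bodies at 12.44, 12.75 and 12.88. All mutants were above all controls, with a gap of 0.747, although the controls spread over 0.974. The difference was 1.50 (SE 0.20, 95% interval 1.06 to 1.94, adjusted p = 0.000312), and it was not shown to exceed a log2 change of 1 (treat adjusted p = 0.296). The lowest control was the sample labelled control 7, and without it the difference was 1.27 (SE 0.16, adjusted p = 0.000349). In whole animals *Hmgs* stayed within a narrow band, at 10.74, 10.77 and 10.70 in controls and 10.78, 10.63 and 10.61 in mutants. The groups overlapped there, and the difference was −0.06 (95% interval −0.50 to 0.38, adjusted p = 0.999). With each tissue fitted alone, the SE for *Hmgs* was 0.0765 in whole animals (limma adjusted p = 0.709). In fat bodies it was 0.257 (limma adjusted p = 0.0165). The 2 tissues differed by 1.56 (SE 0.28, interaction adjusted p = 0.00591). Mutant fat bodies exceeded mutant whole animals by 2.01 (adjusted p = 4.28e-06), whereas control fat bodies (11.19 ± 0.49) and control whole animals differed by 0.45, which did not pass (adjusted p = 0.0625). That difference rested on single fat bodies, since it was 0.687 and passed without the sample labelled control 7 (adjusted p = 0.00284), and was 0.20 without control 6 (adjusted p = 0.252).

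The kinases, the decarboxylase and the isomerase that follow in the pathway did not pass in fat bodies. *Pmvk*, phosphomevalonate kinase, was 0.12 (SE 0.23) higher, *Mvd*, mevalonate diphosphate decarboxylase, 0.23 (SE 0.29) higher, and *Idi*, isopentenyl diphosphate isomerase, had a difference of −0.03 (SE 0.13) there, with adjusted p-values of 0.779, 0.656 and 0.902. In whole animals *Mvd* was at 7.98, 7.91 and 7.60 in controls and 6.89, 6.90 and 6.68 in mutants, and *Pmvk* at 7.16, 7.22 and 7.00 in controls and 6.49, 6.42 and 6.18 in mutants. For both genes the mutants were all below the controls, by gaps of 0.710 and 0.514, a pattern that 13.5% of all genes tested showed in whole animals. The differences of −1.01 (SE 0.29, adjusted p = 0.111) and −0.76 (SE 0.23, adjusted p = 0.145) did not pass in the model of all 12 samples. Both genes passed as lower when whole animals were fitted alone, with or without the replicate number as a block, and with limma's array weights. Of the 10069 genes, 710 passed with whole animals alone and 605 with the block, against 331 in the model of 12 samples. *Mvd* passed in 5 of 21 fits and *Pmvk* in 3 of 21.

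*Mvk*, mevalonate kinase, could not be measured on its own. All of its exon bases (100%) are also exon bases of *CG33672* on the same strand, and *Mvk* was at 0.26 in mutant fat body 1 and −0.02 in mutant whole animal 1, against 7.11 to 9.82 in the other 10 samples. *CG33672* in turn was at 0.36 in control fat body 7 and at 0.20 in mutant fat body 2. The log2 of the sum of both genes' values, an approximate measure on this scale that was chosen after the values were seen, was at 9.69 to 9.99 in control and 9.60 to 10.12 in mutant fat bodies, and at 9.86 to 9.97 in control and 9.42 to 9.61 in mutant whole animals. The sum overlapped between genotypes in fat bodies. In whole animals the mutants were all below the controls, a pattern that 13.5% of all genes tested showed there.

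*Fpps* (FBgn0025373, 2R from 11305511 to 11307528, minus strand) encodes farnesyl diphosphate synthase, at the branch point of the route. It was at 9.30, 9.21 and 9.48 in control fat bodies and at 11.22, 10.82 and 11.21 in mutant fat bodies. The groups were 1.35 apart. The rise of 1.76 (SE 0.14, 95% interval 1.46 to 2.06, adjusted p = 6.73e-06) also passed the test against a log2 change of 1 (treat adjusted p = 0.00508), and was 1.83 without the sample labelled control 7. In whole animals *Fpps* was at 9.57, 9.59 and 9.85 in controls and at 10.02, 9.82 and 9.67 in mutants. These overlapped, with a difference of 0.17 (95% interval −0.13 to 0.47, adjusted p = 0.812). The fat body change exceeded the whole animal change by 1.59 (SE 0.19, interaction adjusted p = 0.000541). Mutant fat bodies (11.08 ± 0.23) were above mutant whole animals (9.84 ± 0.18) by 1.25 (adjusted p = 9.29e-06). Control fat bodies (9.33 ± 0.14) were below control whole animals (9.67 ± 0.16) by a difference of −0.34 (adjusted p = 0.0418), a call that did not hold under several settings and turned to 0.56 after median centring of the samples.

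*qm*, geranylgeranyl diphosphate synthase, which adds a further isoprene unit to farnesyl diphosphate, rose with *Fpps* in mutant fat bodies. It was at 7.65, 7.54 and 7.51 in controls and at 8.13, 8.32 and 8.44 in mutants. The groups did not overlap, and the rise was 0.73 (SE 0.11, adjusted p = 0.000766). In whole animals its difference was 0.05 (95% interval −0.19 to 0.30, adjusted p = 0.992), and the 2 tissues differed by 0.68 (interaction adjusted p = 0.0197), a call lost without control whole animal 2 or mutant whole animal 2. Over the 12 samples the genes most like *Fpps* by Pearson's r were *CG7220* (r = 0.971), *CG10311* (r = 0.968) and *cert*, which encodes a ceramide transfer protein (r = 0.966). All 3 share the libraries and the division into tissue and genotype with *Fpps*, and these coefficients are descriptions.

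*qless* (FBgn0051005, 3R from 31236035 to 31252608, minus strand) encodes a subunit of the polyprenyl diphosphate synthase that builds the tail of ubiquinone. No other annotated gene overlaps its exons. In fat bodies it was at 8.87, 8.98 and 8.57 in controls and at 10.004, 10.45 and 9.97 in mutants. In whole animals it was at 10.21, 10.12 and 9.81 in controls and at 8.72, 8.97 and 9.14 in mutants. The mutants were thus all above the controls in fat bodies, by at least 0.986, and all below them in whole animals, by at least 0.670, a pattern without overlap in either tissue that 0.596% of all genes tested showed. *qless* was proposed with its opposite changes known. This share, the shares below and the p-values of *qless*, in each tissue and for the interaction, are therefore descriptions. The fat body rise was 1.33 (SE 0.17, 95% interval 0.96 to 1.71, adjusted p = 0.000225), and the whole animal difference was −1.10 (SE 0.17, 95% interval −1.48 to −0.73, adjusted p = 0.00367). Neither was shown to exceed a log2 change of 1 (treat adjusted p = 0.647 and 1). The difference between both changes was 2.43 (SE 0.24, interaction adjusted p = 0.000175). It passed the treat test as well (adjusted p = 0.00696). Without the sample labelled control 7 the fat body rise of *qless* was 1.22 (adjusted p = 0.000932).

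On the deposited scale the 4 group means of *qless* formed pairs. Mutant fat bodies (10.14 ± 0.27) and control whole animals (10.05 ± 0.21) had overlapping samples, as did mutant whole animals (8.94 ± 0.21) and control fat bodies (8.81 ± 0.21). In controls the fat body was below the whole animal by a difference of −1.24 (adjusted p = 5.63e-05), and in mutants it was above it by 1.20 (adjusted p = 7.69e-05). Centred on sample medians, the difference was −0.34 in controls, where it no longer passed (adjusted p = 0.103), and 2.05 in mutants, so the pairing of levels across tissues held on the deposited scale and not after this centring. Over all genes, 1.21% passed in both genotypes with opposite tissue differences, and 0.675% did so with the fat body lower in controls and higher in mutants.

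Of all genes tested, 6 (0.0596%) passed in both tissues in opposite directions, of which 5 (0.0497%) were higher in mutant fat bodies and lower in mutant whole animals, as *qless* was. The other 4 of these 5 were *CG6785* (2.22 in fat bodies and −3.74 in whole animals), *Jon74E* (2.28 and −1.46), *Nep2* (0.53 and −0.77) and *PyK* (0.48 and −0.86). *Ip259* changed the reverse way (−0.33 and 0.29). By comparison, 1.33% of genes passed in both tissues in the same direction. The count of 6 depended on single samples, and was 13 without control fat body 7, 11 without mutant fat body 1, and 3 without either control whole animal 1 or mutant whole animal 3. *qless* itself passed in both tissues under every alternative tried, which is a description too, since its opposite changes were known beforehand. The genes most like *qless* over the 12 samples were *prage* (r = 0.872), *twin*, a subunit of the CCR4-NOT deadenylase (r = 0.846), *Gss2*, a glutathione synthetase (r = 0.821), *CG42788* (r = 0.806) and *Vha100-1*, a subunit of the vacuolar proton pump (r = 0.803), all as descriptions over samples that share tissue and genotype.

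*Pdss2* encodes the other subunit of the synthase to which the *qless* product belongs, and it passed the test in whole animals and not in fat bodies. It was at 9.47, 9.37 and 9.11 in control whole animals and at 7.90, 7.86 and 8.004 in mutant whole animals. The groups were 1.11 apart, and the difference was −1.39 (SE 0.10, adjusted p = 1.83e-05), a 2.63-fold lower level. In fat bodies *Pdss2* was at 7.86, 7.86 and 7.75 in controls and at 7.71, 7.74 and 7.78 in mutants. These values overlapped, with a difference of −0.08 (95% interval −0.31 to 0.14, adjusted p = 0.642). The fat body change exceeded the whole animal change by 1.31 (SE 0.14, interaction adjusted p = 0.000298). In mutant whole animals both subunits were thus lower, whereas in mutant fat bodies *qless* rose and the interval of the *Pdss2* difference lay within 0.31 of no change. An antisense RNA gene covers 31.0% of the *Pdss2* exon bases on the other strand, and the library kit was a stranded one.

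*Coq2* (FBgn0037574, 3R from 8314784 to 8316543, minus strand) encodes the transferase that joins the polyprenyl tail to the ring of ubiquinone, the step after *qless* and *Pdss2*. It was at 7.51, 7.68 and 7.49 in control fat bodies and at 7.997, 7.87 and 7.49 in mutant fat bodies. In whole animals it was at 7.47, 7.22 and 7.51 in controls and at 7.62, 7.48 and 7.60 in mutants. Groups overlapped in both tissues. The difference was 0.22 (SE 0.15, 95% interval −0.10 to 0.54, adjusted p = 0.329) in fat bodies and 0.16 (SE 0.15, 95% interval −0.16 to 0.49, adjusted p = 0.853) in whole animals, and the tissues differed by 0.06 (95% interval −0.40 to 0.52, adjusted p = 0.905). A change of *Coq2* as large as that of *qless* in either tissue lay outside these intervals. The other 8 ubiquinone genes listed, *Coq3* to *Coq9* and *CG9410*, did not pass in either tissue, and their differences lay between −0.13 and 0.37 in fat bodies and between 0.01 and 0.31 in whole animals. *Coq4* shares 98.4% of its exon bases with *frc* on the same strand, so its value is uncertain.

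*ERR* lies on chromosome arm 3L (from 8183361 to 8186671). Of the pathway genes named in this report, *Acat2* (from 1302944 to 1304717) and *qm* (from 7348313 to 7353622) lie on the same arm. So do *Coq4* (from 17428936 to 17433621) and *Pdss2* (from 21027915 to 21030141). *Idi*, *qless*, *Coq2*, *Fntb* and *RabGGTa* lie on 3R of the same chromosome. Of these genes, *Acat2*, *Coq4*, *Idi* and *Coq2* did not pass in either tissue. The fathers of mutants came from an *ERR*2 stock and those of controls from a *white* stock without an *ERR* mutation. The paternal chromosomes therefore differed in origin between the genotypes. Linked or other differences between these stocks and the loss of dERR cannot be told apart.

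The surrounding pathway was described with a list of 36 genes, the 5 above included, of which 34 were tested. In fat bodies 8 of the 34 were higher and 3 lower in mutants (32.4%, against 22.3% of all genes tested), with a median difference of −0.01 against −0.07 over all genes. The count of 8 was 4 without mutant fat body 2 and 5 without control fat body 7, mutant fat body 4 or control whole animal 1, and the count of 3 was 5 without control fat body 7. In whole animals 0 were higher and 2, *qless* and *Pdss2*, were lower (5.88% against 3.29%), with a median of 0.05 against 0.01. The tissues differed for 7 of the 34 genes, 5 in the positive and 2 in the negative direction (20.6%, against 10.2% of all genes tested). Of the 29 genes tested outside the 5, 7 passed in fat bodies (24.1%) and 1 in whole animals (3.45%), shares close to those of all genes. Between the tissues, 2 of the 29 differed in the positive and 1 in the negative direction (10.3%), also close to the share of all genes.

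**Figure D2:**
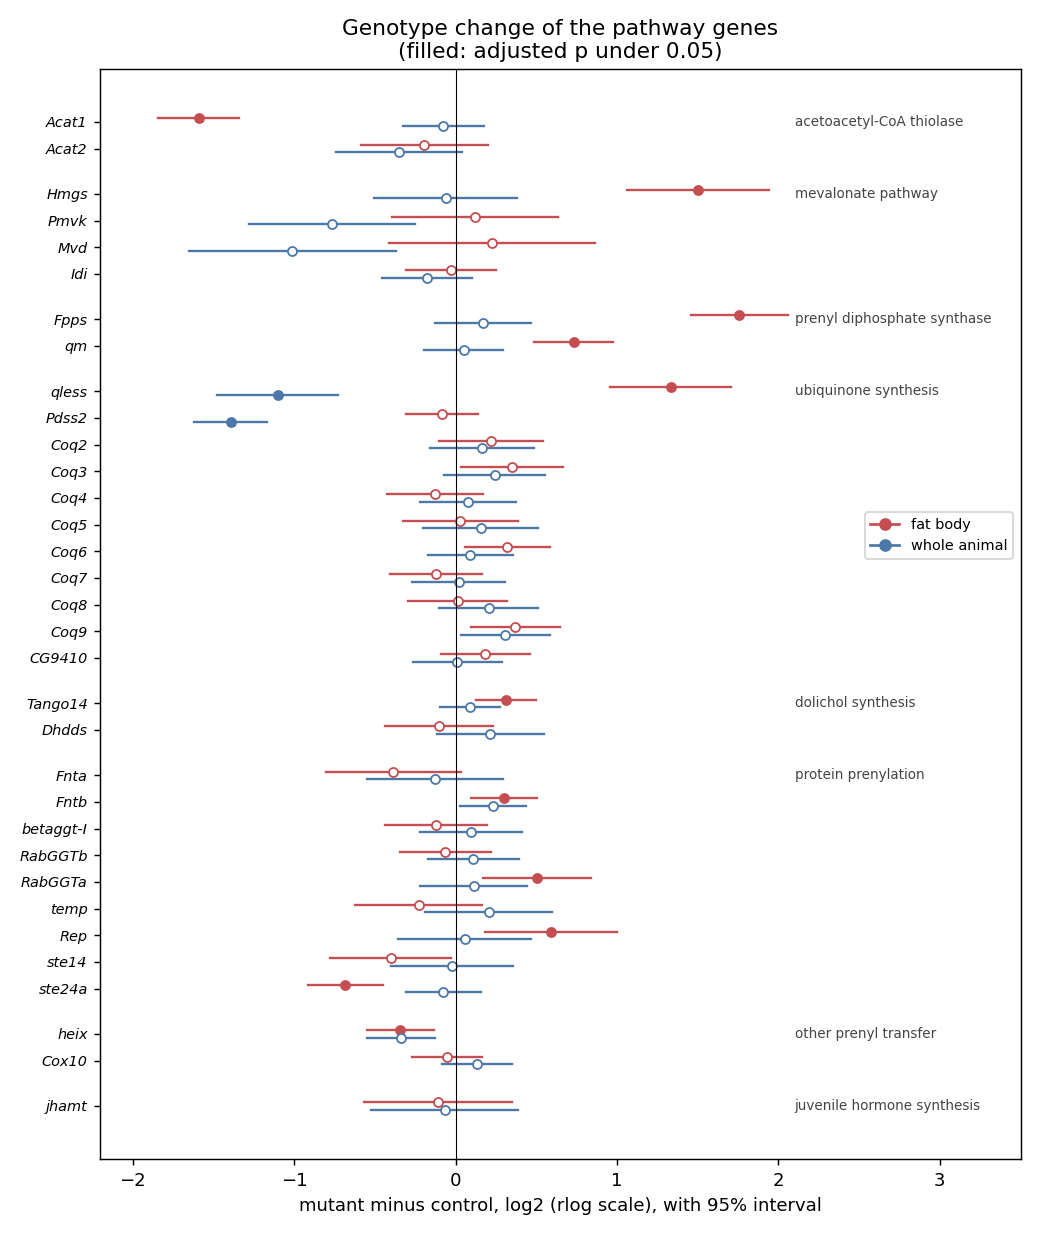
Mutant minus control difference (log2, rlog scale) of the pathway genes tested in fat bodies (red) and whole animals (blue), grouped by the step they serve, with bars for the 95% interval and filled points for an adjusted p under 0.05; *Mvk* is left out. *Hmgs*, *Fpps* and *qless* stand to the right in fat bodies and *Acat1* to the left, while *qless* and *Pdss2* are the filled points of the whole animals.

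Among the branches that use farnesyl and geranylgeranyl diphosphate, changes in mutant fat bodies were small. Of 9 protein prenylation genes tested, 3 rose and 1 fell (44.4%, against 22.3% of all genes tested). *Fntb*, the beta subunit of farnesyltransferase, rose by 0.30 (SE 0.09, adjusted p = 0.0387), *RabGGTa*, the alpha subunit of the enzyme that adds geranylgeranyl groups to Rab proteins, by 0.50 (SE 0.15, adjusted p = 0.0346), and *Rep*, the escort protein that presents Rab proteins to it, by 0.59 (SE 0.19, adjusted p = 0.0436). The partner subunits *Fnta* (−0.38, adjusted p = 0.188) and *RabGGTb* (−0.06, adjusted p = 0.787) did not pass. *ste24a*, a protease that trims prenylated proteins, fell by 0.68 (SE 0.11, adjusted p = 0.000874) in fat bodies, with controls at 9.65, 9.96 and 9.85 and mutants at 9.24, 9.22 and 8.95. In whole animals its difference was −0.08 (adjusted p = 0.953), and the tissues differed by −0.61 (interaction adjusted p = 0.0269), a call lost without a variance trend and without control fat body 6, control whole animal 1 or 3, or mutant whole animal 1 or 3. *ste24a* has near copies beside it in the genome, *ste24b* and *ste24c*, so reads could be split between them. In control and mutant fat bodies the means were 2.55 and 2.83 for *ste24b* and −1.24 and −1.84 for *ste24c*. Both copies were under the filter, and a split of reads was not tested.

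Of the dolichol genes, *Tango14* rose by 0.31 (SE 0.08, adjusted p = 0.0209) in mutant fat bodies and *Dhdds* did not pass (−0.10, adjusted p = 0.712). *heix*, a prenyltransferase of the UbiA family, fell by 0.34 (SE 0.09, adjusted p = 0.0245) in fat bodies, and its difference in whole animals had the same size (−0.34, adjusted p = 0.103). The juvenile hormone gene *jhamt* had means of −0.91 and −1.02 in fat bodies and of 3.59 and 3.52 in whole animals, in controls and mutants respectively, and did not pass in either tissue. *Fntb*, *RabGGTa*, *Rep*, *Tango14* and *heix* each lost their call under some alternatives. Without the sample labelled control 7, *Fntb*, *RabGGTa* and *Tango14* did not pass. Fitted on fat bodies alone, or with array weights, or without mutant fat body 2, the genes that rose were *Hmgs*, *Fpps*, *qm* and *qless*.

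**Figure D3:**
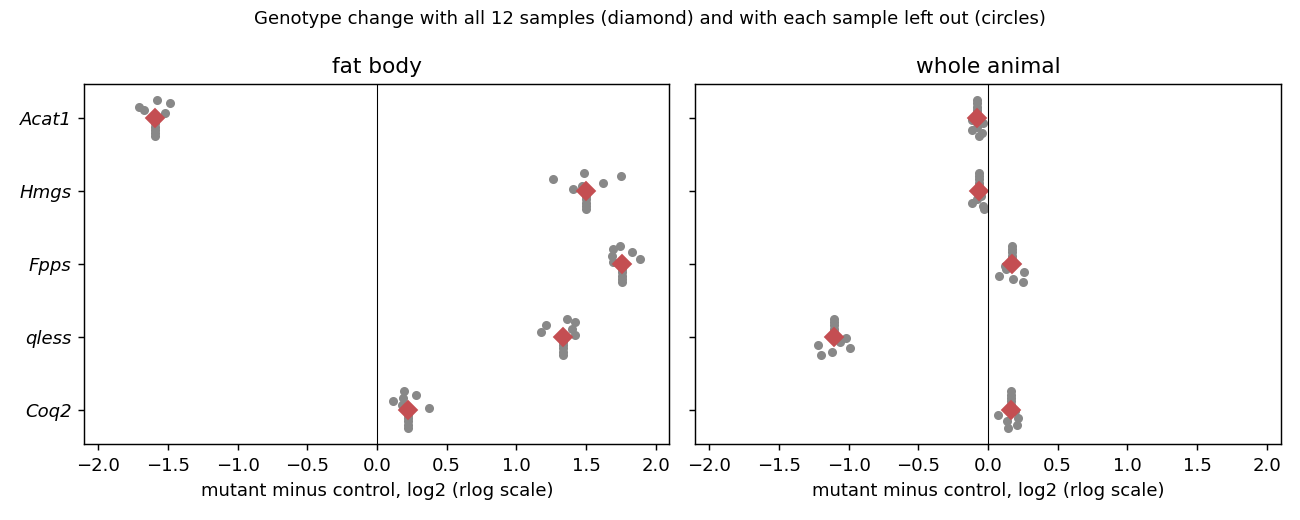
Mutant minus control difference (log2, rlog scale) of the 5 genes with all 12 samples (diamonds) and with each sample left out in turn (circles), in fat bodies and whole animals. The fat body difference of *Hmgs* moved most, between 1.27 and 1.75, and *qless* stayed between 1.18 and 1.42 in fat bodies and between −1.22 and −0.99 in whole animals. Leaving out a sample of the other tissue cannot move a difference.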

How the data were processed

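RNA was measured by stranded, poly-A-selected RNA-seq in 12 samples. The deposited log2 values were made by the authors with the rlog function of DESeq2 1.42.0 from Salmon 1.10.2 transcript estimates summed to genes; rlog divides by size factors and shrinks differences of low genes. Counts and depth are unknown from these values, so precision is that of the replicates. The submitters' notes name the BDGP6 build.

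Genes with a group mean of at least 3.32 in 1 or more groups were tested with limma 3.58.1 in R 4.3.3, with the mean of each group and a variance trend fitted over all 12 samples together. Adjusted p-values are limma's two-sided moderated test with Benjamini-Hochberg adjustment over 10069 genes, and a gene passed when its adjusted p was under 0.05. An exact permutation test of 3 against 3 cannot go below 0.1.

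The genes and lists were chosen with earlier results of these data known. Named genes are the 5 genes described, pathway genes past the threshold, the 5 genes most correlated with *qless* and the 3 with *Fpps*, markers where a result turns on them, and others in passing, chosen after their values were seen. Some genes of the pathway are not reported here, and counts leave them out. Symbols in the pathway list were matched to the table after it was opened and before values were examined. Positions come from the Ensembl 115 annotation of BDGP6.54, with identifiers matched to the table.

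Alternatives were no filter, a higher filter (5.64, or 50 on a count scale), each tissue alone, array weights, no variance trend, median centring, quantile normalization within each tissue, a replicate block for the whole animals, and 12 fits with 1 sample left out. Labels and methods give different ages and RNA kits. Figures were drawn with matplotlib 3.10.9.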

Additional observations from a re-analysis of the deposited data

Results flagged for a closer look

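The genotype change differed between fat bodies and whole animals, by the interaction test of the same model, for 7 of the 34 pathway genes tested. That was 20.6%, against 10.2% of all genes tested. Of the 29 genes tested outside the 5 described, 2 differed in the positive and 1 in the negative direction (10.3%), a share close to that of all genes. The fat body change minus the whole animal change was 2.43 for *qless* (adjusted p = 0.000175), 1.59 for *Fpps* (adjusted p = 0.000541), 1.56 for *Hmgs* (adjusted p = 0.00591), 1.31 for *Pdss2* (adjusted p = 0.000298) and 0.68 for *qm* (adjusted p = 0.0197, not passing without control whole animal 2 or mutant whole animal 2). It was −1.52 for *Acat1* (adjusted p = 0.000258) and −0.61 for *ste24a* (adjusted p = 0.0269). For *Pdss2* the change was in whole animals, and for *qless* it was in both tissues with opposite signs, a pattern known when *qless* was proposed. For the other 5 genes it was the fat body change that passed.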

How the results depend on the processing

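Filter and variance trend settings could move only the SE and adjusted p of a difference, not the difference. The same held for leaving out a sample of a group not compared. Of 598 values recomputed under the alternatives, 557 kept their direction and their side of the threshold or moved little. The genotype changes of the 5 genes in both tissues, and the interactions of *Acat1*, *Hmgs*, *Fpps* and *qless*, did so in every alternative, and adjusted p for *qless* ranged up to 0.00607 in fat bodies and 0.0229 in whole animals. With samples left out in turn, fat body changes ran from −1.71 to −1.48 for *Acat1*, 1.27 to 1.75 for *Hmgs*, 1.69 to 1.89 for *Fpps*, 1.18 to 1.42 for *qless* and 0.11 to 0.37 for *Coq2*. The *Coq2* interaction turned to −0.0142 under quantile normalization and to −0.0477 without mutant fat body 1 (range −0.0477 to 0.208). Median centring moved the median tissue difference of all genes by 0.901 in controls and 0.855 in mutants. It turned the tissue difference of *Acat1* in mutants to 0.36 and of *Fpps* in controls to 0.56, ended that of *qless* in controls (−0.335) and made those of *Hmgs* in controls (1.35) and *Coq2* in controls (1.06) and mutants (1.07) pass. For *Fpps* in controls it no longer passed without a filter (−0.341, adjusted p = 0.0557), without a variance trend (−0.341, adjusted p = 0.0644) and under quantile normalization (−0.292), and ran from −0.417 to −0.250 with samples left out. That of *Hmgs* in controls passed with array weights (0.592) and without control fat body 7 (0.687), and ran from 0.20 to 0.687 with samples left out, and that of *Coq2* in mutants from 0.113 to 0.369. Pathway genes higher in fat bodies numbered 4 with each tissue alone or with array weights, and 4 to 8 with samples left out (5 without control fat body 7, mutant fat body 4 or control whole animal 1, and 4 without mutant fat body 2). Those higher in whole animals numbered 1 with array weights. Those lower in whole animals numbered 4 with whole animals alone, 4 with the replicate block and 6 with array weights. Those lower in fat bodies numbered 2 to 5 with samples left out. Those with a positive interaction numbered 7 with array weights and 4 to 6 with samples left out. Those with a negative interaction numbered 1 without a variance trend and 1 to 2 with samples left out. Genes called in opposite directions numbered 23 with array weights and 3 to 13 with samples left out. Same-numbered whole animals correlated in their deviations at −0.021, −0.047 and −0.126, so no pairing by number was seen in 3 samples per group. How the numbers were assigned is not known. Whole animals alone gave 710 changed genes, and 605 with the replicate block, against 331 in the model of 12 samples, and *qless* and *Pdss2* passed in each. Fat body groups share no replicate number, so no paired analysis was possible there. The causes of these shifts were not tested.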
